A study of Mus musculus with 6 samples.

Results

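The imprinted growth network genes are 10 mouse genes, *H19*, *Meg3*, *Rian*, *Mirg*, *Dlk1*, *Peg3*, *Mest*, *Cdkn1c*, *Grb10*, and *Plagl1*, taken by their gene names from the 55421 genes of the deposited count table. All 10 were found in the table, and 6 of them passed the filter on low counts that left 19005 genes to be tested. RNA was sequenced from C2C12 cells, an established mouse myoblast line that fuses into myotubes when serum is withdrawn, at day 4 of differentiation. The normal group (CUG5) carried a GFP plasmid with 5 CTG repeats, and the DM1 group (CUG200) carried the same kind of plasmid with 200 CTG repeats, a model of the expanded repeat of myotonic dystrophy type 1. Each group had 3 libraries. Cells of both groups were transfected, selected with G418 until stable, grown to confluence, and differentiated in medium with horse serum and insulin. The repeats are thus expressed from a transgene and not from the *Dmpk* gene, and the 3 libraries of a group are described as biological replicates, without saying whether they came from separate transfections, so p-values measure only the spread between these libraries.

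Imprinted genes are transcribed mainly from the copy inherited from 1 parent, under the control of DNA methylation laid down in the germ line. The 10 genes are known as a group that is highly expressed in the growing embryo, falls in most tissues after birth, and remains or returns in stem cells and regenerating muscle. Paternally expressed members such as *Peg3*, *Mest*, *Dlk1*, and *Plagl1* are generally linked to growth, whereas the maternally expressed *H19*, *Cdkn1c*, and *Grb10* are known to restrain it. The counts do not separate the alleles, so nothing here bears on which parental copy was read.

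Several members are hosts of microRNAs or have promoters with shared sequence features, and sequences of some of them are shown first. *H19*, a noncoding RNA, carries the hairpin of miR-675 in an exon, and *Mest* carries the hairpin of miR-335 in an intron. Their mature sequences, from RefSeq (build GRCm38.p6), are printed with the seed, bases 2 to 8, in capitals, since a microRNA pairs with its targets mainly through the seed.
miR-675-5p: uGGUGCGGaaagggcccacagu
miR-675-3p: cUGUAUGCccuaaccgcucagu
miR-335-5p: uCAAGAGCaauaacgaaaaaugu
miR-335-3p: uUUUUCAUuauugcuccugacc
The 4 seeds all differed from each other. The miR-675 hairpin lies at chr7:142577064-142577147 on the minus strand and the miR-335 hairpin at chr6:30741299-30741396 on the plus strand. In these libraries the hairpin gene *Mir675* had 2 counts and *Mir335* had 0 counts in every library, both below the floor of 3 fragments, or 12 counts, used here, so only the host genes could be compared.

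Promoter windows from RefSeq, 250 bases before to 50 bases after a transcription start, were matched for 8 of the 10 members, in 12 windows, and *H19* and *Cdkn1c* had no entry. The windows of *Peg3* and *Mest* are shown because these protein-coding members had the highest levels and lower values in every DM1 library, and that of *Meg3* because it shared a motif with *Peg3* but was close to silent. Of the 3 *Mest* windows, one of the pair with the most CG pairs was chosen. Capitals mark TGACGTCA, the cAMP response element, which reads the same on both strands. The windows are *Peg3* at chr7:6730370-6730669 on the minus strand, *Mest* at chr6:30737800-30738099 on the plus strand, and *Meg3* at chr12:109540746-109541045 on the plus strand.
Peg3: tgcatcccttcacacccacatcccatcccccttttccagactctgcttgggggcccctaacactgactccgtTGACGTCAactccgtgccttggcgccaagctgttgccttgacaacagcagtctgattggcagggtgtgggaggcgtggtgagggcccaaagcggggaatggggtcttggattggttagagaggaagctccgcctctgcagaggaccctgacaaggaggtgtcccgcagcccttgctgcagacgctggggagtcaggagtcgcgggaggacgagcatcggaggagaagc
Mest: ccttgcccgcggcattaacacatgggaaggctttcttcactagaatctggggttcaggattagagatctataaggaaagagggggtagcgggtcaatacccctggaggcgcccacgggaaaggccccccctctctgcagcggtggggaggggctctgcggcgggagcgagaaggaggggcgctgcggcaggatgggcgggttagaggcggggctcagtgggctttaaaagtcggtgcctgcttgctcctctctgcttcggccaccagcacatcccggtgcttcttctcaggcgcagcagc
Meg3: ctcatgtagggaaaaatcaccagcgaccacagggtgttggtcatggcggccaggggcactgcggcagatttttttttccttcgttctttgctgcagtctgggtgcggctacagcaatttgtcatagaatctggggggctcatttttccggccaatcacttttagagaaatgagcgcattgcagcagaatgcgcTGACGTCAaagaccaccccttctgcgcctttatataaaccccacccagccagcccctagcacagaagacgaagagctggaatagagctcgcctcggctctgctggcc

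TGACGTCA occurred in 2 of the 12 windows, once each in *Peg3* and *Meg3*, and in 1.79% of all 32851 promoter windows of this length. It began 178 bases before the start site in *Peg3* and 57 bases before it in *Meg3*. The E-box letters CANNTG, also the same on both strands and the core bound by MyoD and myogenin, are too common to set a promoter apart, being present in 72.3% of all windows. The printed *Mest* window held 1 such match, and the printed *Peg3* and *Meg3* windows held 0. CCAAT, searched with its reverse complement ATTGG, was found in 37.4% of all windows, with 2 matches in *Peg3*, 1 in the printed *Meg3* window, and 0 in the printed *Mest* window. No TGACGTCA overlapped a match of the other motifs. The *Peg3* and printed *Meg3* windows each held 13 CG pairs and the printed *Mest* window 17, against a median of 7 over all windows. The highest number, 45, was in a window of *Grb10*. These motifs were chosen after the sequences had been seen, and a match is a description of the letters only.

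The question was which of these genes differ between differentiating myoblasts with the long and the short repeat. *H19*, *Peg3*, *Mest*, *Cdkn1c*, and *Grb10*, the 5 members above the filter in every library, all had lower normalised counts in the DM1 group. Of all tested genes, 48.6% had a log2(fold change) below 0. *Plagl1* was lower as well, but it was above the filter in 3 normal and only 2 DM1 libraries, so the filter favoured a lower value. *Mest* was reduced 2.50-fold, *Grb10* 1.85-fold, and *H19* 1.21-fold, and these passed the test. *Peg3*, *Plagl1*, and *Cdkn1c* were lower by 3.38-fold, 3.07-fold, and 1.75-fold on the means but did not pass it. The remaining *Meg3*, *Rian*, *Mirg*, and *Dlk1*, which all lie in 1 imprinted cluster, were at or near 0 counts in both groups.

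In numbers, 3 of the 6 tested members were downregulated, with an adjusted p below 0.05 by the quasi-likelihood test of edgeR, where 8.73% of all tested genes were called lower. That number was 2 by DESeq2, 1 with no filter on low counts, 1 without DM1 library 2, and 1 without any 1 of the normal libraries. None was upregulated, where 7.13% of all tested genes were called higher. The number of members higher at an unadjusted p under 0.05 was also 0, and DESeq2 and each other alternative gave 0. With the added cutoff of the paper, an absolute log2(fold change) over 1, *Mest* was the 1 member called lower, where 0.816% of all tested genes were, and 0 were called higher, where 1.36% were. *H19*, *Peg3*, *Mest*, *Cdkn1c*, and *Grb10* were above the filter in every library, while *Plagl1* was above it in 3 normal and 2 DM1 libraries and is left out of the next counts. The log2(fold change) was below 0 in these 5 of 5, as in 48.6% of all tested genes, with a median of −0.89 beside 0.02 over all tested genes. The 3 libraries of the DM1 group all lay below the 3 of the normal group in 5 of the 5, against 19.3% of all tested genes. The 4 members that failed the filter enter none of these counts.

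**Figure D1:**
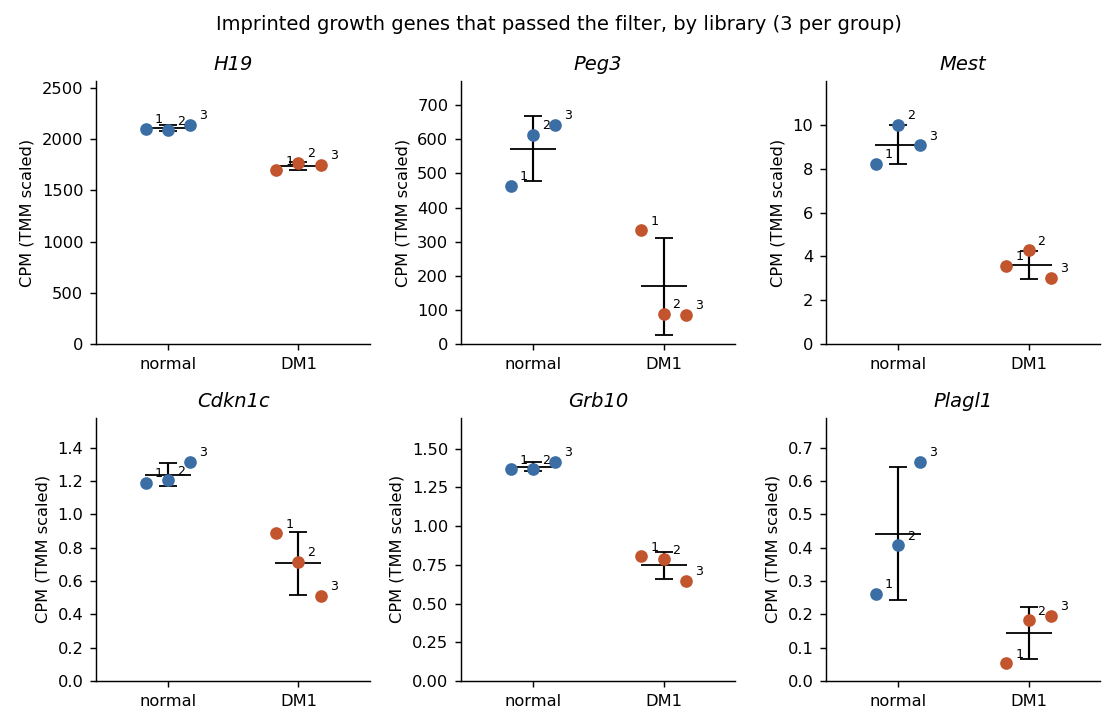
Normalised counts (CPM, scaled by the TMM method) of the 6 tested members in each library, with replicate numbers beside the points. Horizontal lines are group means and bars are SD (n = 3 per group), and every axis starts at 0. All DM1 values lie below all normal values in each panel, and in *Peg3* the DM1 library 1, at 333 CPM, stands between the normal libraries and the other DM1 libraries.

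Compared per transcript length, as TPM, a unit scaled for transcript length and library size, the members spanned a wide range and kept 1 order in the normal group. *H19* stood at 1611 ± 71.8 TPM (SD, n = 3), *Peg3* at 126 ± 10.5 TPM, *Mest* at 6.82 ± 0.542 TPM, *Cdkn1c* at 1.22 ± 0.182 TPM, *Grb10* at 0.463 ± 0.0163 TPM, and *Plagl1* at 0.209 ± 0.126 TPM. The libraries of neighbours in this order did not overlap within the normal group. In the DM1 group the same order held on the means, at 1227 ± 145, 37.7 ± 21.3, 3.20 ± 0.580, 0.722 ± 0.311, 0.225 ± 0.00669, and 0.0489 ± 0.0348 TPM. There the lowest members were no longer separate, since *Plagl1* ranged from 0.0144 to 0.0840 TPM and *Rian* from 0.0274 to 0.115 TPM. By TPM, *H19* ranked between 56 and 61 among all genes in the normal libraries and between 82 and 102 in the DM1 libraries, while *Peg3* ranked between 856 and 1191 and between 1900 and 4956.

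**Figure D2:**
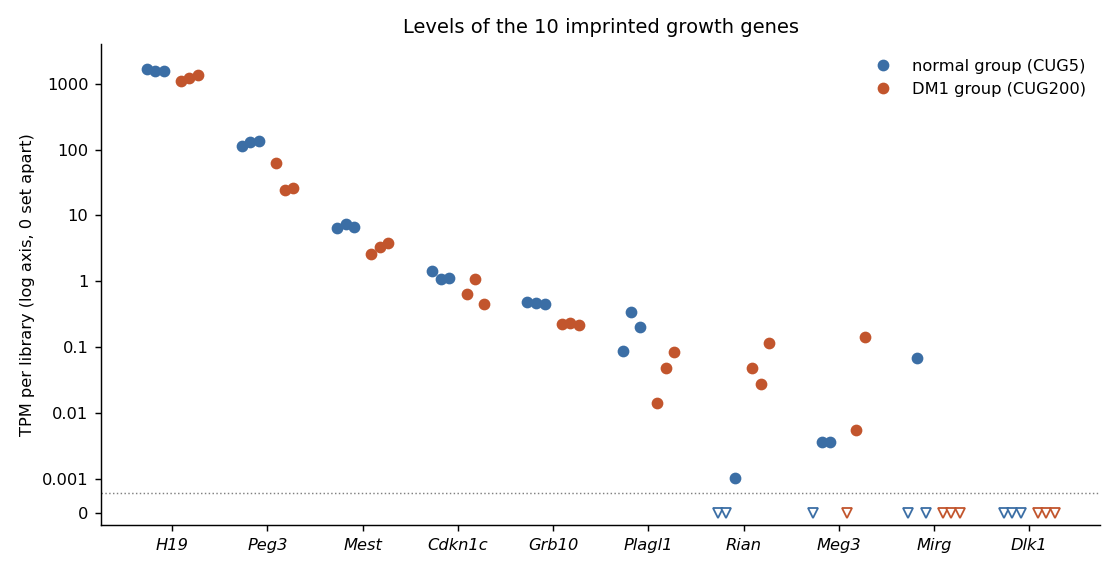
Level per transcript length (TPM) of all 10 members in each library, on a log axis with values of 0 drawn as open triangles below the dotted line. Members are ordered by their mean, from *H19*, above 1000 TPM in every library, to *Dlk1*, which was 0 in every library.

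*H19* is the maternally expressed long noncoding RNA next to *Igf2* on chromosome 7 (ENSMUSG00000000031, chr7:142575529-142578143, minus strand, GRCm38, annotated as lincRNA). It is strongly induced when myoblasts differentiate. Its normalised count was 2102, 2083, and 2137 CPM in normal libraries 1 to 3 and 1696, 1769, and 1748 CPM in DM1 libraries 1 to 3. The spread within each group was small, with 2107 ± 27.5 CPM in the normal group and 1738 ± 37.6 CPM in the DM1 group (SD, n = 3), and the groups did not overlap. The reduction to 82.5% of the normal mean had a log2(fold change) of −0.28 (SE 0.0775, adjusted p = 0.0427, edgeR). This call lay close to the threshold and was lost in 11 of the 17 alternative analyses, with adjusted p-values between 0.0124 and 0.198 over all of them and a lower value in the DM1 group in each. It was lost without DM1 library 1 (adjusted p = 0.0558) or 2 (0.138) and without normal library 1 (0.120), 2 (0.133), or 3 (0.198).

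*Igf2*, the paternally expressed growth factor that shares enhancers with *H19*, did not pass the test. Its normalised counts were 13.5, 11.4, and 5.65 CPM in the normal group and 9.37, 11.1, and 11.3 CPM in the DM1 group, which overlapped, with a log2(fold change) of 0.06 (SE 0.290, adjusted p = 0.918, edgeR). The sign of this value turned with 1 library, being −0.22 without normal library 3 and 0.32 without normal library 1. Its antisense transcript *Igf2os* lay at 0.664 ± 0.0685 CPM in the normal group and 1.151 ± 0.194 CPM in the DM1 group (SD, n = 3) without overlap, but did not pass the test (log2(fold change) 0.79, adjusted p = 0.0878, edgeR). *H19* exceeded *Igf2* between 261-fold and 639-fold in TPM, the highest ratio being that of normal library 3. The log2 ratio of *Igf2* to *H19* was −8.54 ± 0.686 in the normal group and −8.12 ± 0.113 in the DM1 group (SD, n = 3), a difference of 0.42 (p = 0.50, exact two-sided permutation test, whose smallest possible p with 3 against 3 libraries is 0.10). Without normal library 3 the difference was 0.03, and without normal library 1 it was 0.68 (exact permutation p = 0.10, the smallest possible).

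*Meg3*, *Rian*, and *Mirg* are maternally expressed noncoding RNAs of the Dlk1-Dio3 cluster on chromosome 12, and *Dlk1*, a transmembrane inhibitor of adipocyte differentiation that is also known from regenerating muscle, is the paternally expressed coding gene at its start. The cluster also holds one of the largest groups of microRNA and small nucleolar RNA genes of the mouse genome, produced from the long noncoding RNAs. It was close to silent in every library. *Dlk1* (ENSMUSG00000040856, chr12:109452823-109463336, plus strand) had 0 counts in all 6 libraries, which allows up to 3 fragments of 4 counts each, or between 0.143 and 0.195 CPM depending on the library. *Rtl1*, *Dio3*, and *Dio3os* of the same cluster also had 0 counts in all 6.

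*Meg3* (ENSMUSG00000021268, chr12:109541001-109571726, plus strand) was counted 0, 3, and 3 times in normal libraries 1 to 3 and 0, 4, and 9 times in DM1 libraries 1 to 3. *Mirg* (ENSMUSG00000097391, chr12:109729764-109749460, plus strand) had 4 counts in normal library 2 and 0 in the other 5 libraries. Since 1 fragment commonly gave 4 counts, these values stand for no more than a few fragments, and differences in *Meg3* and *Mirg* were not detectable at this depth. *Rian* (ENSMUSG00000097451, chr12:109603808-109661716, plus strand) was counted 0, 0, and 1 times in the normal group and 8, 7, and 19 times in the DM1 group. Both groups lie around or under the floor of 12 counts, so no fold is given. In a fit without the filter its adjusted p was 0.104 (edgeR), so *Rian* did not pass the test, and its 3 DM1 libraries lay above its 3 normal ones at a level of 0.0637 ± 0.0457 TPM (SD, n = 3).

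The summed level of *Meg3*, *Rian*, and *Mirg* was 0.0257 ± 0.0405 TPM in the normal group and 0.112 ± 0.124 TPM in the DM1 group (SD, n = 3), a difference of 0.0868 TPM (p = 0.30, exact two-sided permutation test, smallest possible p 0.10). Without DM1 library 3, which held 0.256 TPM, the difference was 0.0152 TPM. A ratio of *Dlk1* to these noncoding RNAs could not be formed because *Dlk1* was 0 throughout. Between the start of *Dlk1* and the end of *Dio3* (chr12:109452823-110281097) the table listed 116 genes, of which 107 had no count in any library, among them all 67 microRNA genes. The 1 gene there that passed the filter was *Gm3379*, a processed pseudogene with up to 3265 counts in a library, a kind of gene that can share reads with its parent gene.

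*Peg3* encodes a paternally expressed zinc finger protein that marks muscle stem cells and is linked to p53 and NF-kappaB signaling (ENSMUSG00000002265, chr7:6703892-6730431, minus strand). Its normalised count was 464, 613, and 642 CPM in normal libraries 1 to 3 and 333, 89.5, and 86.0 CPM in DM1 libraries 1 to 3. All DM1 libraries lay below all normal libraries, but DM1 library 1 stood 3.72-fold above library 2 and 3.87-fold above library 3. The means were 573 ± 95.9 CPM in the normal group and 170 ± 142 CPM in the DM1 group (SD, n = 3). The log2(fold change) of −1.76 (SE 0.642) had an adjusted p of 0.147 (edgeR) and did not pass the test. It was the largest among the 6 tested members in the main analysis, but not without DM1 library 2 or 3. Without DM1 library 2 *Plagl1* stood at −1.82 and *Peg3* at −1.45, and without DM1 library 3 at −1.89 and −1.44. Without DM1 library 1 the log2(fold change) of *Peg3* was −2.69 (SE 0.153, adjusted p = 5.3e-04, edgeR). On the TPM values, at 114, 131, and 134 against 62.2, 24.3, and 26.5, *Peg3* passed the test in limma-trend (log2(TPM + 1) difference −1.85, SE 0.319, adjusted p = 0.0213).

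Such a gap was rare. Among 9661 genes with a mean of at least 10 CPM, DM1 library 1 was more than 3-fold above both other DM1 libraries for 3, *Pcdhgb1*, *Peg3*, and *Smim15*. Neighbours of *Peg3* did not share it. *Zim1*, a maternally expressed zinc finger gene of the same domain, stood at 55.7, 57.8, and 51.5 CPM in the DM1 libraries. Against 99.3, 85.0, and 66.8 CPM in the normal libraries it was downregulated, with a log2(fold change) of −0.61 (SE 0.137, adjusted p = 0.0207, edgeR), and it was called in 12 of 17 alternatives, with adjusted p-values up to 0.0692. *Usp29*, which starts 146 bases from *Peg3* on the opposite strand and so within the printed promoter window, had 8.01, 10.5, and 4.34 CPM in the normal group and 4.45, 6.86, and 6.77 CPM in the DM1 group (log2(fold change) −0.33, SE 0.320, adjusted p = 0.544, edgeR). The groups of *Usp29* overlapped in CPM, and its DM1 library 1 was the lowest of the 3. In TPM they did not overlap, at 4.39, 5.20, and 3.25 against 1.85, 2.77, and 3.01, with a log2(TPM + 0.1) difference of −0.73 (limma-trend, adjusted p = 0.110). With 1 library left out its log2(fold change) ranged from −0.60 (without normal library 3) to −0.04 (without normal library 2). *Zim3* and *Zfp264* of the domain had 0 counts in every library.

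*Mest*, also called *Peg1*, encodes a paternally expressed protein of the alpha/beta hydrolase family (ENSMUSG00000051855, chr6:30723547-30748465, plus strand). It had 8.23, 9.999, and 9.06 CPM in the normal libraries and 3.58, 4.30, and 3.02 CPM in the DM1 libraries. The groups were far apart relative to their spread, at 9.10 ± 0.884 and 3.63 ± 0.638 CPM (SD, n = 3). *Mest* was downregulated to 39.9% of the normal mean, with a log2(fold change) of −1.32 (SE 0.166, adjusted p = 0.00276, edgeR), and passed the test in all 17 alternatives. It was the 1 member past both cutoffs. *Mest* shares 912 exonic bases with *Copg2*, a coatomer subunit gene on the opposite strand, and the strand setting of the counting is not given in the sources used here. *Copg2* itself was at 72.5, 71.4, and 63.8 CPM in the normal group and 81.8, 80.9, and 76.7 CPM in the DM1 group, the opposite direction to *Mest*, and did not pass the test (log2(fold change) 0.21, adjusted p = 0.126, edgeR). In TPM the groups of *Copg2* overlapped. *Cep41*, on the other side of *Mest*, did not pass it either (log2(fold change) −0.19, adjusted p = 0.241, edgeR), and *Klf14* had no counts.

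*Plagl1*, or *Zac1*, encodes a paternally expressed zinc finger transcription factor that arrests the cell cycle and is regarded as a regulator of other imprinted genes (ENSMUSG00000019817, chr10:13060504-13131694, plus strand). It was the lowest of the tested members, with counts of 22, 25, and 46 in the normal group and of 4, 13, and 13 in the DM1 group, or 0.262, 0.407, and 0.658 CPM against 0.0538, 0.182, and 0.196 CPM. The groups did not overlap, yet each varied widely, at 0.442 ± 0.201 and 0.144 ± 0.0783 CPM (SD, n = 3). The log2(fold change) of −1.61 (SE 0.639) did not pass the test (adjusted p = 0.126, edgeR) in the main analysis or in any of 14 alternatives. At 4 counts to a fragment, the DM1 libraries held only a few fragments of *Plagl1* each. Its neighbours *Sf3b5*, a splicing factor subunit gene, and *Ltv1*, a ribosome biogenesis gene, overlapped between the groups in CPM (adjusted p = 0.242 and 0.278, edgeR). In TPM *Sf3b5* overlapped as well, while *Ltv1* did not, at 61.97, 63.1, and 61.7 TPM in the normal libraries and 50.2, 50.8, and 50.5 TPM in the DM1 libraries.

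*Cdkn1c* encodes p57, a maternally expressed inhibitor of cyclin-dependent kinases that takes part in the cell cycle exit of myoblasts (ENSMUSG00000037664, chr7:143458339-143461050, minus strand). It had 1.19, 1.21, and 1.32 CPM in the normal libraries and 0.888, 0.716, and 0.511 CPM in the DM1 libraries. Its counts were 100, 74, and 92 in the normal group and 66, 51, and 34 in the DM1 group. At 4 counts to a fragment these too are few fragments. The groups did not overlap, and the spread was larger in the DM1 group, with 1.24 ± 0.0694 against 0.705 ± 0.188 CPM (SD, n = 3). The log2(fold change) was −0.81 (SE 0.288), and the adjusted p of 0.0931 (edgeR) missed the threshold, as it did in all 17 alternatives. *Gm44732*, an antisense gene that shares 625 exonic bases with *Cdkn1c*, had 4 counts in DM1 library 1 and 0 in the other libraries.

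In the rest of the *Cdkn1c* domain, *Kcnq1ot1*, the paternally expressed noncoding RNA that silences the domain in cis, was at 14.9 ± 1.45 and 16.1 ± 1.16 CPM (SD, n = 3) and did not pass the test (log2(fold change) 0.11, adjusted p = 0.602, edgeR). *Slc22a18*, a transporter gene beside *Cdkn1c*, had a log2(fold change) of −0.88 (SE 0.372) that did not pass it either (adjusted p = 0.148, edgeR). *Tssc4* was upregulated, from 13.2, 15.9, and 12.4 CPM to 18.4, 20.1, and 21.7 CPM, with a log2(fold change) of 0.54 (SE 0.128, adjusted p = 0.0253, edgeR), and was called in 12 of 17 alternatives, with adjusted p-values up to 0.278. *Cd81* and *Nap1l4* overlapped between the groups, and *Phlda2* had no counts.

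*Grb10* encodes an adaptor protein that binds the insulin and IGF-1 receptors and dampens their signaling (ENSMUSG00000020176, chr11:11930508-12038683, minus strand). It had 1.37, 1.37, and 1.42 CPM in the normal libraries and 0.807, 0.786, and 0.647 CPM in the DM1 libraries. Its counts were 115, 84, and 99 in the normal group and 60, 56, and 43 in the DM1 group. The groups did not overlap, at 1.38 ± 0.0283 and 0.747 ± 0.0871 CPM (SD, n = 3). At 4 counts to a fragment these are few fragments, so the small spread of the normal libraries cannot be read closely. *Grb10* was downregulated to 53.9% of the normal mean, with a log2(fold change) of −0.89 (SE 0.242, adjusted p = 0.0397, edgeR). The call was lost in 11 of the 17 alternatives, including without any 1 of the 6 libraries, where the adjusted p lay between 0.0678 and 0.128 and the log2(fold change) between −0.93 and −0.80. On the log2(TPM + 1) scale, where the added 1 exceeds its level, its difference was −0.26 (limma-trend, adjusted p = 0.109).

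The genes on both sides of *Grb10* were also lower. *Cobl*, an actin nucleator gene, fell from 51.9, 59.6, and 63.4 CPM to 32.2, 32.8, and 36.7 CPM (log2(fold change) −0.78, SE 0.101, adjusted p = 0.0030, edgeR). *Ddc*, which encodes aromatic L-amino acid decarboxylase, fell from 4.42, 4.35, and 3.25 CPM to 2.08, 1.797, and 1.31 CPM (log2(fold change) −1.21, SE 0.228, adjusted p = 0.0109, edgeR). Neither gene overlapped between the groups, and both passed the test in all 17 alternatives. Of the 27 neighbours listed over all loci, 17 were tested. Of these, 3 were lower (*Cobl*, *Ddc*, and *Zim1*) and 1 was higher (*Tssc4*), beside 8.73% lower and 7.13% higher of all tested genes. The other 13 were not called, and the median log2(fold change) of the 17 was −0.02.

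**Figure D3:**
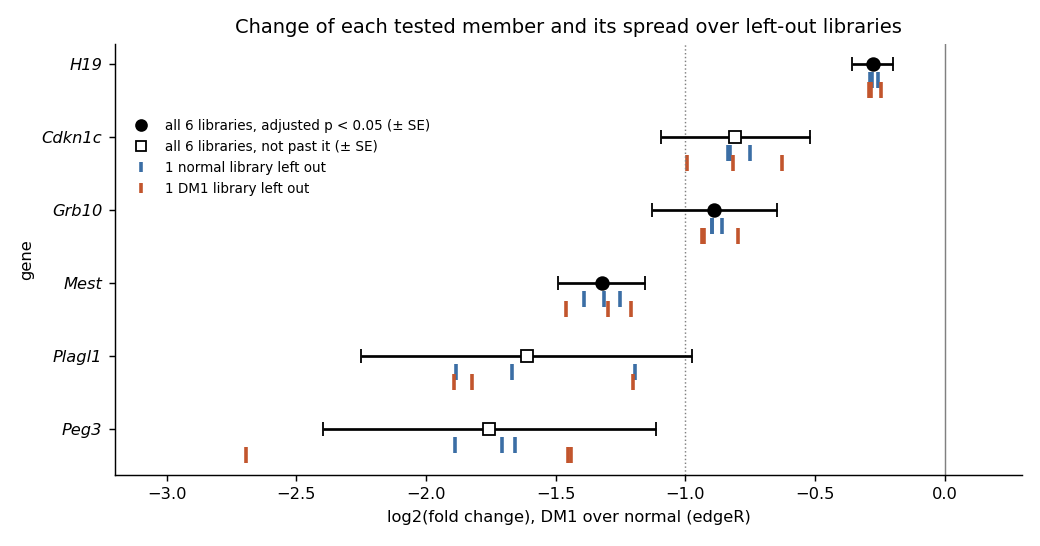
Log2(fold change) of the DM1 over the normal group for the 6 tested members (edgeR), with SE as bars and the value without each library as ticks below. The solid line marks 0 and the dotted line −1. Every value lies below 0, and the tick of *Peg3* at −2.69 is the fit without DM1 library 1.

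**Figure D4:**
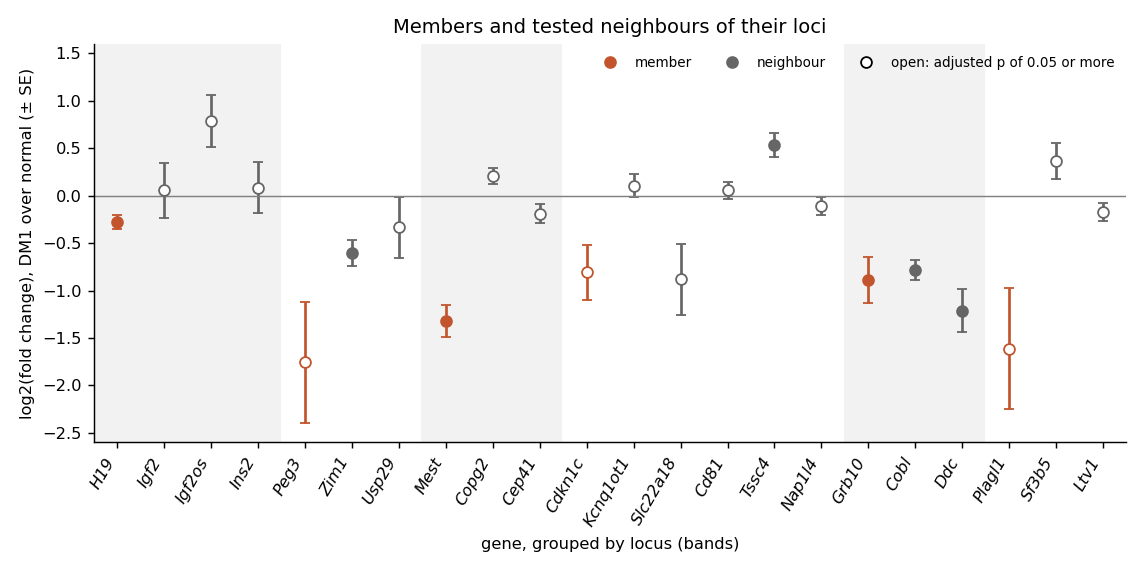
Log2(fold change) with SE of each tested member and of the tested neighbours of its locus, grouped in bands, with open symbols for an adjusted p of 0.05 or more. Around *Grb10* the member, *Cobl*, and *Ddc* are all filled and below 0, whereas *Igf2* (0.06) beside *H19* and *Copg2* (0.21) beside *Mest* are open, and the bar of *Igf2* crosses 0.

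Among 59 other imprinted genes found in the table, 40 were tested, of which 6 were lower and 2 higher in the DM1 group (edgeR), beside 8.73% lower and 7.13% higher of all tested genes, and their median log2(fold change) was −0.04. With 1 library left out, between 2 and 6 were lower and between 0 and 3 higher. The counts fell to 2 and 0 without DM1 library 2, 3 and 0 without normal library 1 or 3, and 4 and 1 without normal library 2. This list holds *Cobl*, *Ddc*, *Zim1*, and *Tssc4* as well. *Igf2r*, the receptor that clears IGF2 and is maternally expressed in mice, had 124, 113, and 135 CPM in the normal libraries and 64.6, 70.6, and 93.7 CPM in the DM1 libraries, with no overlap (log2(fold change) −0.70, SE 0.143, adjusted p = 0.0145, edgeR), and was called in 14 of 17 alternatives, where the adjusted p reached 0.0665. *Ube3a*, a ubiquitin ligase gene, fell from 40.4 ± 5.64 to 26.4 ± 2.15 CPM (SD, n = 3; log2(fold change) −0.61, adjusted p = 0.0124, edgeR), a call kept in 13 alternatives (adjusted p up to 0.268). The noncoding *Peg13* fell from 19.1 ± 0.938 to 13.2 ± 1.44 CPM (log2(fold change) −0.54, adjusted p = 0.0183, edgeR), a call kept in 11 (adjusted p up to 0.0751). *Dcn*, which encodes the matrix proteoglycan decorin, rose from 733 ± 39.6 to 1000 ± 137 CPM (log2(fold change) 0.45, adjusted p = 0.0281, edgeR), a call kept in 11 (adjusted p up to 0.115) and lost without DM1 library 2 or any 1 normal library. *Peg10* did not pass the test (log2(fold change) 0.35, adjusted p = 0.0707, edgeR) but was called by DESeq2 (0.35, adjusted p = 0.0465), and its neighbour *Sgce* did not pass it (0.02, adjusted p = 0.922, edgeR).

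By the distance between mean-centred log2 CPM profiles over the 6 libraries, the gene outside the set most like *Mest* was *Dmd*, the dystrophin gene (root mean square distance 0.0792). *Peg3* was nearest to *Ppp1r3a*, which encodes the muscle glycogen-targeting subunit of protein phosphatase 1 (distance 0.205). *Ppp1r3a* had 1.21, 1.29, and 1.29 CPM in the normal libraries and 0.673, 0.253, and 0.196 CPM in the DM1 libraries, with DM1 library 1 in between as for *Peg3*. *Plagl1* was nearest to *Ampd1*, the AMP deaminase gene of muscle (0.306), *Grb10* to the sodium channel gene *Scn7a* (0.0499), *Cdkn1c* to *Fam72a* (0.0790), and *H19* to the RNA helicase gene *Ddx49* (0.0174). These distances describe 6 libraries only.

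Of 18 myotube genes tested, 14 were lower and 0 higher in the DM1 group (edgeR, with 1 higher at an unadjusted p under 0.05 and 0 by DESeq2). Of all tested genes 8.73% were lower and 7.13% higher, the shares to set beside this list and the marker lists that follow. The summed level of the myotube genes, none at 0, lay between 10518 and 12412 TPM in the normal libraries and between 5784 and 7984 TPM in the DM1 libraries. The fusion factor gene *Mymx* had 60.6, 60.8, and 58.3 CPM in the normal libraries and 69.5, 73.5, and 67.3 CPM in the DM1 libraries, higher without overlap, and did not pass the test (log2(fold change) 0.23, adjusted p = 0.0732, edgeR). In TPM its groups overlapped, at 163, 149, and 139.8 against 144, 166, and 170.1. The perinatal and slow myosin genes *Myh8* and *Myh7* had log2(fold change) values of −2.90 (adjusted p = 7.7e-05, edgeR) and −2.13 (adjusted p = 1.0e-03), and the muscle creatine kinase gene *Ckm* −0.84 (adjusted p = 0.0016). Of 12 genes of undifferentiated myoblasts, *Cd34* (0.97, adjusted p = 0.0031) and *Id2* (0.41, adjusted p = 0.0304) were higher and *Myod1* was lower (−0.52, adjusted p = 0.0129, edgeR). The other 9 were not called, and the median log2(fold change) of the 12 was −0.09. All DM1 libraries lay below all normal ones for 5 of the 12 and above them for 3. Of all tested genes, 19.3% and 17.9% did so. *Cd34* was called in all 17 alternatives, *Myod1* in 15, and *Id2* in 10, where the adjusted p of *Id2* reached 0.209. The summed level of the 12 genes overlapped in TPM, between 466 and 530 in the normal and between 469 and 528 in the DM1 libraries. In normalised counts this sum was between 1051 and 1062 CPM and between 1076 and 1227 CPM, higher in every DM1 library. The part of the myotube content in the lower member levels was not tested, and in bulk RNA a smaller share of fused cells and less RNA per cell cannot be told apart.

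Markers of other cell types were mixed, with some at 0 and some expressed. Of 8 adipocyte markers, *Adipoq*, *Fabp4*, *Cidec*, and *Lep* had no counts, *Cebpa* and *Pparg* overlapped between the groups, and *Lpl* was the 1 called, lower (log2(fold change) −0.59, adjusted p = 0.0081, edgeR), with a summed level between 21.2 and 22.7 TPM in the normal and between 13.6 and 16.97 TPM in the DM1 libraries. Of 6 macrophage markers, *Ptprc* and *Adgre1* had no counts and of the 2 tested 0 were called by edgeR, 0 at an unadjusted p under 0.05 and 0 by DESeq2, with a summed level between 4.15 and 6.17 and between 4.29 and 6.82 TPM. Of 6 endothelial markers, *Tie1* had no counts, *Tek* was lower (−0.95, adjusted p = 0.0107, edgeR), and *Vwf* had 0.713 ± 0.0216 CPM in the normal and 1.07 ± 0.110 CPM in the DM1 group without overlap and did not pass the test (0.59, adjusted p = 0.163, edgeR), with a summed level between 3.47 and 4.37 and between 1.40 and 2.43 TPM. Library totals lay between 61707889 and 80957325 counts. No libraries had the near-identical counts of a library deposited more than once, the smallest chi-square between any pair (counts divided by 4) being 10.9 times its degrees of freedom.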

How the data were processed

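RNA of 3 CUG5 and 3 CUG200 libraries of C2C12 cells at differentiation day 4 was analysed, with groups from the sample labels. The authors trimmed reads with Trim Galore, aligned them to GRCm38 with HISAT2, and quantified genes with StringTie (versions not given in the sources used here). They deposited raw counts per gene for the 6 libraries and, per library, tables of coverage (signal), FPKM, and TPM. All 6 count columns were used, FPKM was not. Each count corresponded to 75 aligned bases, and the commonest smallest amount, 300 bases or 4 counts, was taken as 1 fragment. Library totals were 61707889 to 80957325 counts, and the floor of 3 fragments, or 12 counts, was worth 0.143 to 0.195 CPM.

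Counts were compared with edgeR 4.0.16 (R 4.3.3): filterByExpr at its minimum count of 10, TMM scaling (factors 0.940 to 1.05), robust quasi-likelihood test, no covariate, Benjamini-Hochberg adjustment over 19005 genes, adjusted p under 0.05. CPM values are TMM scaled. Single values were compared by exact permutation. The code was tested on simulated data. Alternatives were DESeq2 1.42.0, other scalings and filters, edgeR without robust estimation, a replicate block, counts divided by 4, counts summed over overlapping genes, limma-trend (3.58.1) on log2(TPM + 1) and log2(TPM + 0.1), and each library left out. Profile distances used a prior count of 1.

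Members and gene lists (locus neighbours, other imprinted genes, imprint maintenance factors, and myotube, undifferentiated myoblast, adipocyte, macrophage, and endothelial genes) were chosen with earlier results of these data known. All 10 members were named, as were *Igf2*, *Igf2r*, *Rtl1*, *Dio3*, *Peg10*, *Sgce*, *Kcnq1ot1*, *Usp29*, and *Zim1* whatever their values, up to 6 other imprinted genes per direction by smallest p among those called, 3 per direction from each other list, and the nearest profile of each tested member. Genes named beyond this rule (further neighbours and markers, genes at 0 counts, and overlapping genes) were chosen after their values were seen.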

Additional observations from a re-analysis of the deposited data

How the results depend on the processing

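*H19*, *Peg3*, *Mest*, *Cdkn1c*, and *Grb10* kept a lower value in the DM1 group in each of 17 alternatives. *Plagl1* was also lower in the 14 that could be computed for it. It was above the filter in 3 normal and only 2 DM1 libraries, so the filter favoured that direction. *Mest* was called in all 17, with log2(fold change) between −1.46 and −0.90. *Cdkn1c* and *Plagl1* were called in 0, with values between −0.99 and −0.38 and between −1.89 and −0.20, the smallest of each by limma-trend on log2(TPM + 1). *H19* was not called with at least 10 counts in every library (−0.27), library sizes alone (−0.30), limma-trend on log2(TPM + 0.1) or log2(TPM + 1) (−0.40 in each), or no filter (−0.28), and lay between −0.29 and −0.25 with 1 library left out. *Grb10* was not called by DESeq2 (−0.89), limma-trend with 0.1 (−0.79) or 1 (−0.26), or no filter (−0.89), and lay between −0.93 and −0.80 with 1 library left out. *Peg3* was called by limma-trend with 0.1 (−1.88) or 1 (−1.85) and lay between −2.69 and −1.44 with 1 library left out, where it was called only without DM1 library 1.

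The replicate numbers were not shown to pair the samples, since same-numbered libraries correlated at 0.067, 0.022, and 0.026. With the replicate number as a block, edgeR called 2823 genes in place of 3016 and 1 member lower in place of 3, as *H19* (−0.28, adjusted p = 0.0579) and *Grb10* (−0.89, adjusted p = 0.0714) lost their calls. The block left the difference in summed *Meg3*, *Rian*, and *Mirg* at 0.0868 TPM and in the log2 ratio of *Igf2* to *H19* at 0.42.

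The number of members called lower was 1 with no filter and 1 with the fold cutoff, and between 1 and 2 with 1 library left out. It was 0 for higher throughout. Other imprinted genes called higher numbered 0 by limma-trend with either pseudocount and 0 with the fold cutoff, and between 0 and 3 with 1 library left out. Those called lower numbered 1 with the fold cutoff and between 2 and 6 with 1 library left out. Of the other imprinted genes named, *Cobl* and *Ddc* were called in all 17, *Igf2r* in 14, *Ube3a* in 13, *Zim1* and *Tssc4* in 12, and *Peg13* and *Dcn* in 11. Leaving out DM1 library 2 or any 1 normal library brought all calls from 3016 to between 1028 and 1439. *Meg3*, *Rian*, *Mirg*, and *Plagl1* rest on too few fragments for a fold change to be read closely. *Cdkn1c* and *Grb10*, with between 34 and 115 counts in a library, also rest on few fragments.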

Other observations

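Of 16 factors listed for the maintenance of imprints, 15 were tested, 4 were lower and 0 higher in the DM1 group, beside 8.73% lower and 7.13% higher of all tested genes (edgeR, with 1 higher at an unadjusted p under 0.05 and 1 by DESeq2), with a median log2(fold change) of −0.14. *Ctcf*, which encodes the insulator protein that binds the control region between *H19* and *Igf2*, had 44.4, 44.7, and 47.8 CPM in the normal libraries and 29.9, 29.3, and 32.0 CPM in the DM1 libraries, without overlap (log2(fold change) −0.59, SE 0.0837, adjusted p = 0.0040, edgeR), and was called in all 17 alternatives. *Trim28*, the corepressor that protects methylated control regions, had a log2(fold change) of −0.43 (adjusted p = 0.0125) and *Uhrf1*, which guides the maintenance DNA methyltransferase, −0.46 (adjusted p = 0.0146), and each was called in 12 of 17 alternatives. *Dnmt1*, that methyltransferase, was at 79.2 ± 2.75 CPM in the normal and 60.3 ± 8.97 CPM in the DM1 group (SD, n = 3; log2(fold change) −0.39, adjusted p = 0.0421, edgeR). *Zfp57*, a zinc finger partner of TRIM28, was lower without overlap but did not pass the test (−0.47, adjusted p = 0.0578). *Dppa3* had no counts. *Dnmt1*, *Zfp57*, and *Dppa3* were chosen after their values were seen.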
